A study of Homo sapiens with 4 samples.

Results

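The 10 genes DYRK2, MDM1, RAP1B, NUP107, SLC35E3, CPM, CPSF6, LYZ, YEATS4 and FRS2 are neighbours of MDM2 in band 12q15 of the long arm of human chromosome 12. They were picked by name and map position from the 25693 Ensembl genes of a single-cell count table, MDM2 was left out of the set and serves as its reference, and all 10 had a row and passed the low-count filter. The cells were NGP, an established neuroblastoma line that is a single line and so the only genetic background here. They had been synchronised by serum starvation and then kept for 24 h with Nutlin-3 or with ethanol, which is the control. Nutlin-3 is a small molecule that sits in the p53 pocket of MDM2 and keeps the proteins apart. Droplet libraries that read the 3′ end of polyadenylated RNA were made on the ddSeq device, 2 per treatment, 1 with ERCC spike-in RNA diluted 1000-fold and 1 with a 10000-fold dilution.

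MDM2 is a ubiquitin ligase that marks p53 for destruction, and p53 in turn activates transcription of MDM2 from a second promoter inside the gene, so the pair forms a feedback loop. Band 12q15 is a segment that tumours, among them some neuroblastomas and many liposarcomas, carry in extra copies, and such amplified segments usually hold several genes beside the one that is thought to be selected. NGP is known for amplified MYCN and for extra copies of 12q segments with CDK4 and MDM2. DNA copy number was not measured here. The question was whether the neighbours stood as high as MDM2 among all genes, and whether they shared its difference between Nutlin-3 and ethanol.

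Some properties of the table bear on every value. Each treatment had 250 columns, named by 12 bases and a word for treated or untreated, and no column told which of the 2 libraries it came from. Each treatment was therefore 1 pool without replicates: no test was possible, no difference has a replicate check, and all intervals below are 95% intervals for counting error alone. Of the 250 column names, 219 occurred in both treatments and 31 per treatment occurred once. The pools held 1342134 human counts in ethanol and 1301232 in Nutlin-3. In each, 113 large columns had more than 4000 counts and 137 small columns had fewer, and 11.3% of the human counts in ethanol lay in small columns. Columns whose names occurred once had at most 1488 human counts in ethanol and 1710 in Nutlin-3. Every large column thus bore a name found in both treatments. What a shared name means for the columns is not given in the sources used here. Of 12 markers of adrenergic neuroblastoma 12 passed the filter, with a median level at the 96.8th percentile of genes in ethanol, which goes with the labelled cell line.

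The gene starts of the neighbours lie from 1159.8 kb on the centromeric side of MDM2 to 662 kb on its telomeric side, with 5 genes on each side. MDM1 and CPM are transcribed from the minus strand and the other 8 from the plus strand, as is MDM2. Promoter sequences were examined because p53 acts on MDM2 through DNA near a start site. Windows of 250 bases upstream of a start were taken from RefSeq on GRCh38.p14, where 8 of the 10 neighbours matched an entry. DYRK2 and LYZ had none. The p53 consensus was searched at its full 20 letters, made of 2 adjoining copies of a palindromic motif, so that a search of 1 strand covers both. Of 35116 windows in the RefSeq table, 0.561% held a match with at most 2 mismatches, and the median window's best match had 5. The sequences below show the internal promoter of MDM2, with 2 mismatches, and the windows of 3 neighbours, a centromeric, the nearest telomeric and the farthest telomeric one, with the best match in each in capitals.
MDM2, chr12:68808767-68809016, plus strand: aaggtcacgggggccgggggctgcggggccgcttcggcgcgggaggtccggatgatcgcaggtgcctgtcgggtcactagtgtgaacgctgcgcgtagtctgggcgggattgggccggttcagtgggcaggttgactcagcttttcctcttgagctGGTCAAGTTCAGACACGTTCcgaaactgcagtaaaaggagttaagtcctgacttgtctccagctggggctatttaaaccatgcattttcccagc
MDM1, chr12:68332363-68332612, minus strand: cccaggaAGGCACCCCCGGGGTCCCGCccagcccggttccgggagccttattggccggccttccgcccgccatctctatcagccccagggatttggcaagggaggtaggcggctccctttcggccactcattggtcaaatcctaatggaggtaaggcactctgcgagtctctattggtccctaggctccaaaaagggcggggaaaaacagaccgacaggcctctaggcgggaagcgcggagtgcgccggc
CPM, chr12:68933200-68933449, minus strand: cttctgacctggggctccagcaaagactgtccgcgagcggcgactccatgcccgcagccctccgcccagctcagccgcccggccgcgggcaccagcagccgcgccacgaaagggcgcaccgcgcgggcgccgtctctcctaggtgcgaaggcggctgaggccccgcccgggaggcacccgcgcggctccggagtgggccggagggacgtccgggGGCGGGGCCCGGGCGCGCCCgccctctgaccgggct
FRS2, chr12:69470138-69470387, plus strand: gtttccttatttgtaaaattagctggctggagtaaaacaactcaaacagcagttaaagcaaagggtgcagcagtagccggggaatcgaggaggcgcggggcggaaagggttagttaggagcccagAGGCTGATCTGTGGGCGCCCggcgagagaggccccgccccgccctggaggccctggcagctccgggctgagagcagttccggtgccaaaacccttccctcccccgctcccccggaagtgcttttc

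In the MDM2 window the match began 94 bases before the start. The best matches of MDM1, CPM and FRS2 had 6 mismatches each, as did those of SLC35E3, CPSF6 and YEATS4. RAP1B had 5 mismatches. NUP107 came closest among the neighbours, with 4 mismatches in GGAGAACCCAGGGCCTGTTC, a number that 22.1% of all windows reached or bettered. The upstream start of MDM2 itself had 5 mismatches. A match is a description of letters, and its absence says only that these letters are not in this window. CpG dinucleotides in the windows of the neighbours ranged from 6 to 41, both in further windows of CPM, whose printed window had 36. NUP107 and FRS2 had 14 each, with 17 in the internal promoter of MDM2 and a median of 11 over all windows.

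MDM2 (ENSG00000135679, chromosome 12, 68808176 to 68850686 in GRCh38) was counted 315 times in ethanol and 504 times in Nutlin-3, which is 235 and 387 c.p.m. (counts scaled to a common library total). The 95% Poisson intervals of these sums, 281 to 352 and 461 to 550, did not overlap. The log2 fold change was 0.72, with an interval from 0.52 to 0.93. Of the 14830 genes that passed the filter, 5.89% had a fold change at least as large, but of the 8844 genes whose mean level reached 50 c.p.m. only 31, or 0.351%, did. For the direction of the treatment as a whole, 30 of 30 known p53 targets, a list that includes MDM2, were higher in Nutlin-3, 25 of them by at least 0.32 on the log2 scale, the smaller of the thresholds used here, with a median log2 fold change of 0.94. That list was put together with earlier results of these data known. Of all genes that passed the filter, 14.9% were higher by at least 0.32.

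In the sums over all columns, the neighbours other than LYZ did not show this difference. CPM and DYRK2 sat at 1 count in most large columns, and whether differences are compressed in such genes was not tested. The median log2 fold change of all 10 neighbours, LYZ included, was -0.06, beside -0.00 over all genes that passed the filter. In Nutlin-3, 3 were higher and 7 lower, beside 7361 higher and 7469 lower among the 14830 genes that passed the filter. At the threshold of 0.32 on the log2 scale, 1 of 10 was higher, against a background of 14.9% of all genes, and 1 of 10 was lower, against 12.4%. At 1.5-fold, 1 was higher, against a background of 7.81%, and 0 were lower, against 5.85%. These shares are close to the background. Of the 8 neighbours whose mean reached 50 c.p.m., 0 were past the 0.32 threshold in either direction, against 3.74% higher and 3.82% lower among all such genes. The interval of the fold change held 0 for 9 of the 10 neighbours, and for the same number the interval of the difference from the MDM2 fold change lay below 0.

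**Figure D1:**
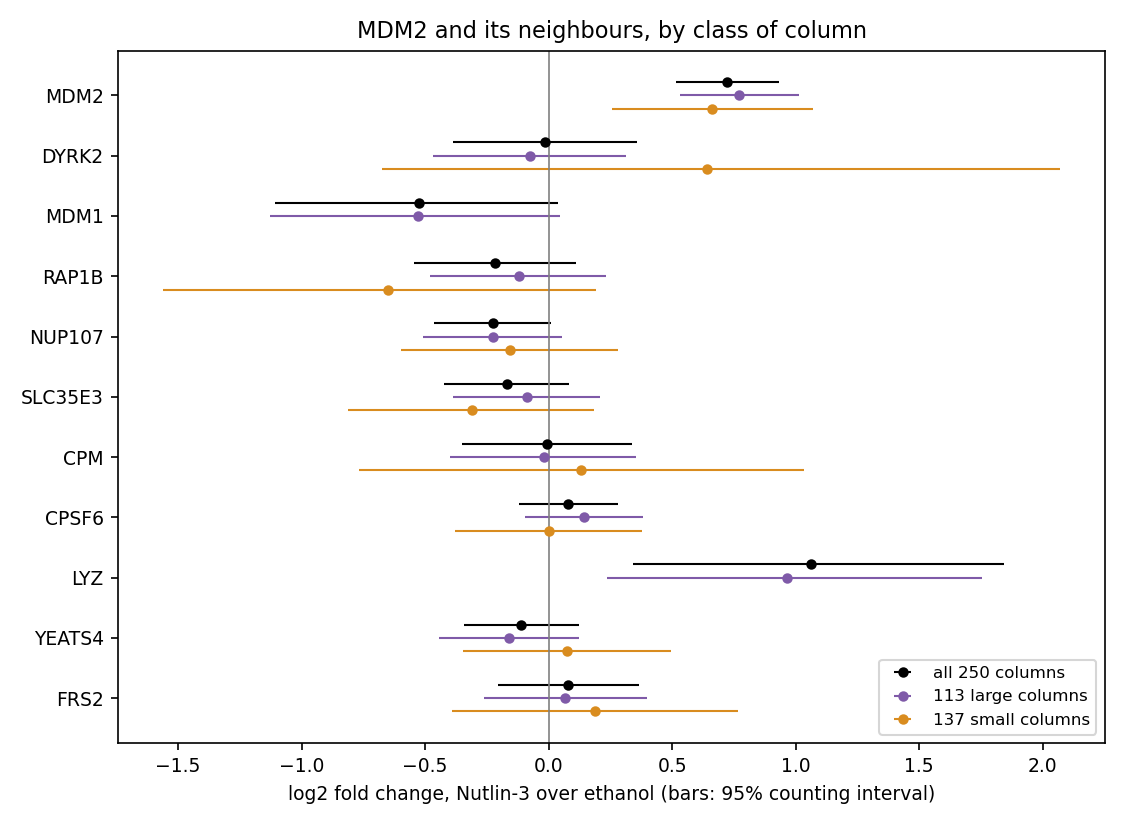
Log2 fold change (Nutlin-3 divided by ethanol) for MDM2 and its neighbours in map order, in all 250 columns per treatment, in the 113 large and in the 137 small ones. Points are values of 1 pool per treatment and bars are 95% counting intervals; MDM2 stands near 0.7 in each class of columns, while the bars of every neighbour but LYZ cross 0. Values at or under 3 counts in both pools are not drawn.

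NUP107 and SLC35E3 are the nearest protein-coding genes on the centromeric side, and RAP1B is next. NUP107 (ENSG00000111581, 68686734 to 68745809), whose start lies 121 kb from that of MDM2, encodes a scaffold protein of the nuclear pore. It had 331 counts with ethanol and 274 with Nutlin-3. Its Poisson intervals of 296 to 369 and 243 to 308 overlapped, and its log2 fold change was -0.23 (-0.46 to 0.01), lower than that of MDM2 by a log2 difference of -0.95 (-1.27 to -0.63). SLC35E3 (ENSG00000175782, 68746106 to 68793964) encodes a membrane protein of the solute carrier family that includes nucleotide sugar transporters. It ends upstream of the first exon of MDM2 and its start is 62.1 kb away. With 283 counts in ethanol and 244 in Nutlin-3, its log2 fold change was -0.17 (-0.42 to 0.08), and its difference from MDM2 was -0.89 (-1.22 to -0.56). RAP1B (ENSG00000127314, 68610839 to 68671901), a small GTPase of the Ras family that acts in cell adhesion, had 175 counts in the ethanol pool and 146 in the Nutlin-3 pool. Its log2 fold change was -0.22 (-0.54 to 0.11). All 3 genes were thus somewhat lower in Nutlin-3, by amounts that their counting intervals do not separate from 0. RAP1B has 3 annotated processed pseudogenes, not analysed here, that could share reads with it.

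The genes farther out on this side differ from each other in level. MDM1 (ENSG00000111554, 68272443 to 68332381) encodes a protein that binds microtubules and acts at centrioles. It had 67 counts in ethanol (51.9 to 85.1) and 45 in Nutlin-3 (32.8 to 60.2). Its log2 fold change of -0.52 (-1.11 to 0.04) was the lowest of the 10, and it was the one neighbour lower by more than the threshold. MDM1 and MDM2 share a name from the amplified mouse DNA they were first found on, and their proteins are unrelated. DYRK2 (ENSG00000127334, 67648338 to 67665406), a kinase that can phosphorylate p53, was counted 125 times in ethanol and 120 times in Nutlin-3. Its log2 fold change was -0.01 (-0.39 to 0.36), so that the gene with a direct role beside p53 showed no difference that these counts can resolve.

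CPM (ENSG00000135678, 68842197 to 68971570) encodes carboxypeptidase M, a membrane enzyme that trims basic residues from the carboxyl end of peptides. It faces MDM2 tail to tail, and the annotated genes overlap by 8490 bases on opposite strands. Its counts were 146 with ethanol and 141 with Nutlin-3, with a log2 fold change of -0.00 (-0.35 to 0.34), and its difference from the MDM2 fold change was -0.73 (-1.13 to -0.32). An annotated antisense transcript, AC025423.4 (68841288 to 68843237), lies wholly within the span of MDM2, over 1950 bases, and covers the end of CPM. It had 142 counts with ethanol and 179 with Nutlin-3, a log2 fold change of 0.38 (0.05 to 0.71), between those of CPM and MDM2. Whether the authors' counting used strand is not given in the sources used here. Reads of overlapping genes on opposite strands, such as MDM2 and either of the others, cannot be told apart without it. CPM and AC025423.4 lie on the same strand and share 1041 bases, where strand would not separate them. The values of CPM, AC025423.4 and MDM2 are uncertain to that extent.

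On the telomeric side, CPSF6, YEATS4 and FRS2 were all well counted. CPSF6 (ENSG00000111605, 69239537 to 69274358) encodes a subunit of cleavage factor I, which takes part in the choice of the polyadenylation site. It had 409 counts with ethanol (370 to 451) and 419 with Nutlin-3 (380 to 461), and its log2 fold change was 0.08 (-0.12 to 0.28). YEATS4 (ENSG00000127337, 69359703 to 69390796), also called GAS41, reads acylated histones within the TIP60 and SRCAP chromatin complexes. It had 323 counts in the ethanol pool and 290 in the Nutlin-3 pool, a log2 fold change of -0.11 (-0.34 to 0.12). FRS2 (ENSG00000166225, 69470349 to 69579789) is the docking protein that links FGF receptors to the MAP kinase pathway. Its 206 counts in ethanol and 211 in Nutlin-3 gave a log2 fold change of 0.08 (-0.20 to 0.36). The differences from the MDM2 fold change were -0.64 (-0.93 to -0.35) for CPSF6, -0.83 (-1.15 to -0.52) for YEATS4 and -0.64 for FRS2, whose interval ended at -0.29. None of these intervals reached 0.

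LYZ was the exception. LYZ (ENSG00000090382, 69348341 to 69354234) encodes lysozyme, an enzyme that cuts bacterial cell walls and that macrophages, other myeloid cells and secretory epithelia make in quantity. It had 24 counts in ethanol (15.4 to 35.7) and 49 in Nutlin-3 (36.3 to 64.8), or 17.9 and 37.7 c.p.m.. The intervals of the sums did not overlap, and the log2 fold change was 1.06 (0.34 to 1.84). Its difference from the MDM2 fold change was 0.35 (-0.41 to 1.15). LYZ was also the lowest of the 10 genes in ethanol, at the 19.0th percentile, and 2.9% of all genes that passed the filter had a fold change at least as large. In large columns it had 24 and 46 counts, a log2 fold change of 0.96 (0.24 to 1.75). In small columns it was counted 0 times in ethanol and 3 times in Nutlin-3, and the columns whose names occurred once held 0 in both, so that no fold change can be given for either. YEATS4, the next protein-coding gene along the chromosome, had a log2 fold change of -0.11.

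Markers of myeloid cells were set beside LYZ. Of 10 such markers 5 had a row in the table, and their counts summed to 21 in ethanol and 24 in Nutlin-3. CD14 had 7 counts in each pool, CD68 had 0 and 4, CSF1R had 1 and 0, FCER1G had 10 and 12, and CD163 had 3 and 1. In small columns each of the 5 was at 0 in both treatments. Of 4 epithelial markers 3 had a row, with a sum of 21 counts in ethanol and 35 in Nutlin-3. EPCAM had 16 and 21 counts, KRT8 had 2 and 0, and KRT19 had 3 and 14, a log2 fold change of 2.10 (0.43 to 4.71) whose interval lay above 0, as did that of LYZ. Their part in the LYZ difference was not tested. An antisense transcript over the end of LYZ, AC020656.1, had 14 counts with ethanol and 17 with Nutlin-3. It lies on the opposite strand, so with strand not given, LYZ counts are uncertain as well.

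Counts per column showed how the sums came about. In the 113 large columns of ethanol, NUP107 had 2.05 counts per column on average, YEATS4 1.98, CPSF6 2.51 and MDM2 2.01, so these genes started from a like or higher level. In Nutlin-3 the mean of MDM2 was 3.34, while that of NUP107 was 1.71, of YEATS4 1.73 and of CPSF6 2.70. The share of large columns with at least 2 counts was 61.1% and 93.8% for MDM2, in ethanol and Nutlin-3. It was 62.8% and 44.2% for NUP107, 60.2% and 51.3% for YEATS4, and 77.0% and 77.9% for CPSF6. The MDM2 range was 1 to 8 counts, with a median of 2, in ethanol, and 1 to 15, with a median of 3, in Nutlin-3. The 2 treatments thus overlapped per column even for MDM2. SLC35E3 had at least 2 counts in 49.6% of the large columns of each treatment.

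**Figure D2:**
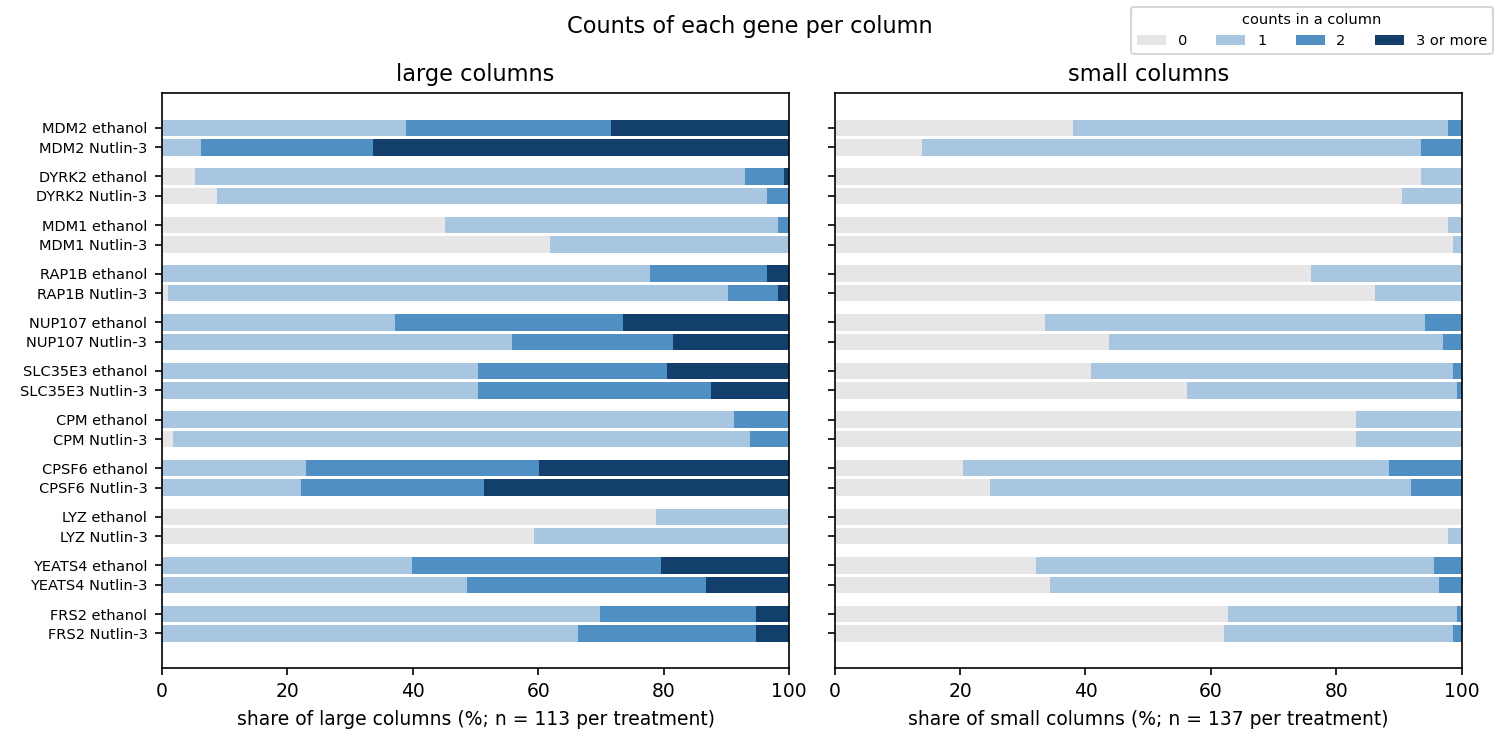
Share of columns, in percent, that held 0, 1, 2 or at least 3 counts of MDM2 and of each neighbour, in the large columns (113 per treatment) and small columns (137 per treatment). The dark parts of the MDM2 bars widen from ethanol to Nutlin-3 and those of NUP107 and YEATS4 do not; CPM and DYRK2 sit at 1 count in nearly all large columns.

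Other neighbours showed 1 count in almost every large column. CPM was at exactly 1 count in 103 of 113 large ethanol columns and in 104 of 113 Nutlin-3 columns, and DYRK2 was at 1 in 99 of 113 in each. The variance of CPM over columns was 0.0748 of its mean in ethanol, whereas independent counting gives a ratio near 1. Such values are common in this table: 92.8% of all nonzero values were 1, and 30.5% of genes had a mean between 0.9 and 1.2 in the large ethanol columns. For such genes the Poisson interval is wider than the spread between columns, and whether differences in RNA level are compressed in them was not tested. In large columns the ratio was below 1 for MDM2 and each of the 10 neighbours in both treatments, from 0.0748 for CPM to 0.832 for CPSF6 in ethanol. CPM and DYRK2 had means within that band, and RAP1B, at 1.26, and FRS2, at 1.36, had means just above it. MDM1 and LYZ lay below this level. MDM1 was seen in 54.9% of large ethanol columns (45.2 to 64.2, exact binomial interval) and 38.1% of Nutlin-3 columns (29.1 to 47.7), and LYZ in 21.2% (14.1 to 29.9) and 40.7% (31.6 to 50.4).

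In the small columns, with a median of 868 counts in ethanol and 828 in Nutlin-3, the same comparison was made. MDM2 had 88 counts there in ethanol and 127 in Nutlin-3, a log2 fold change of 0.66 (0.26 to 1.07). NUP107 had 99 and 81 counts (-0.16, from -0.60 to 0.28), CPSF6 had 125 and 114 (0.00, from -0.38 to 0.38), and YEATS4 had 99 and 95 (0.07, from -0.35 to 0.49). SLC35E3 had 83 and 61 counts, with a log2 fold change of -0.31 (-0.81 to 0.18). FRS2 had 52 and 54. RAP1B and DYRK2 moved most against all columns, to -0.65 (-1.56 to 0.19) from 33 and 19 counts and to 0.64 (-0.68 to 2.07) from 9 and 13. Past 0.32 on the log2 scale, 1 of 8 neighbours was higher in small columns and 1 lower, against 27.4% and 27.1% of the genes that passed the filter there. In large columns 1 of 10 was higher and 1 lower, against 14.2% and 11.9%. For 4 of the 8 neighbours with a value in small columns, NUP107, SLC35E3, RAP1B and CPSF6, the difference from the MDM2 fold change still lay below 0 with its whole interval. In the 31 columns per treatment whose names occurred once, MDM2 had 16 and 26 counts (0.46, from -0.47 to 1.48), and for 0 of 6 neighbours did the difference exclude 0. FRS2 had 3 counts in the ethanol pool and 10 in the Nutlin-3 pool there, a ratio on the log2 scale of 1.36 (-0.44 to 4.02). Those columns hold too few counts to tell the neighbours from MDM2.

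Shares of columns with a count were also compared at equal depth, by thinning each column to 700 counts, which left out 56 ethanol and 63 Nutlin-3 columns. MDM2 was then seen in 23.2% of 194 ethanol columns (17.5 to 29.8) and 34.8% of 187 Nutlin-3 columns (28.0 to 42.1). Without thinning the shares were 79.2% and 92.4%. At 350 counts they were 14.1% (9.97 to 19.2) and 28.6% (22.8 to 34.9). NUP107 was seen in 25.3% and 18.2% at 700 counts and in 81.6% and 76.0% without thinning, but its order turned at 350 counts, with 14.5% and 17.3%. The order of CPSF6 turned as well, from 30.4% and 26.2% at 700 counts to 17.8% and 21.6% at 350. That of RAP1B turned from 10.3% and 11.8% to 7.47% and 2.16%, and DYRK2, MDM1 and CPM also changed order. Each depth was a single random draw. At 700 counts LYZ was seen in 1.03% (0.125 to 3.67) and 4.81% (2.22 to 8.94), and in 9.60% and 19.6% without thinning. Apart from NUP107, CPSF6 and LYZ, the largest difference at 700 counts was that of FRS2, with 14.4% (9.81 to 20.2) and 21.4% (15.7 to 28.0). Without thinning FRS2 was seen in 65.6% and 66.0%. Intervals of ethanol and Nutlin-3 overlapped for MDM2 and for each of the 10 neighbours at 700 counts. At 350 counts those of MDM2 did not overlap, and without thinning those of MDM2 and LYZ did not. At 700 counts the classes of column still differed. MDM2 was seen in 12.4% of large ethanol and 23.0% of large Nutlin-3 columns, and in 38.3% and 52.7% of small ones. CPSF6 was among the genes that ran opposite ways by class, with 9.73% and 17.7% in large and 59.3% and 39.2% in small columns. All cells were of 1 line, so the share of columns that free RNA would give was not measured.

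The level of the neighbours among all genes was the second measure. On the c.p.m. scale, their median percentile among the 14830 genes was 95.7 in ethanol and 93.6 in Nutlin-3. The median gene that passed the filter had 87 counts in ethanol. CPSF6, NUP107 and YEATS4 lay at or above the 99th percentile in ethanol, 3 of 10 against 1.0% of all genes, and 6 of 10 lay at or above the 90th, against 9.84%. MDM2 had rank 149, and CPSF6, NUP107 and YEATS4 ranked 80, 134 and 144. SLC35E3 ranked 187 and FRS2 460. RAP1B stood at the 94.5th percentile, CPM at the 87.4th, DYRK2 at the 74.6th, MDM1 at the 40.4th and LYZ at the 19.0th. In Nutlin-3, MDM2 ranked 49, and CPSF6 was the 1 neighbour left at or above the 99th percentile. The genes were chosen with such values in view, so this is a description of the segment.

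**Figure D3:**
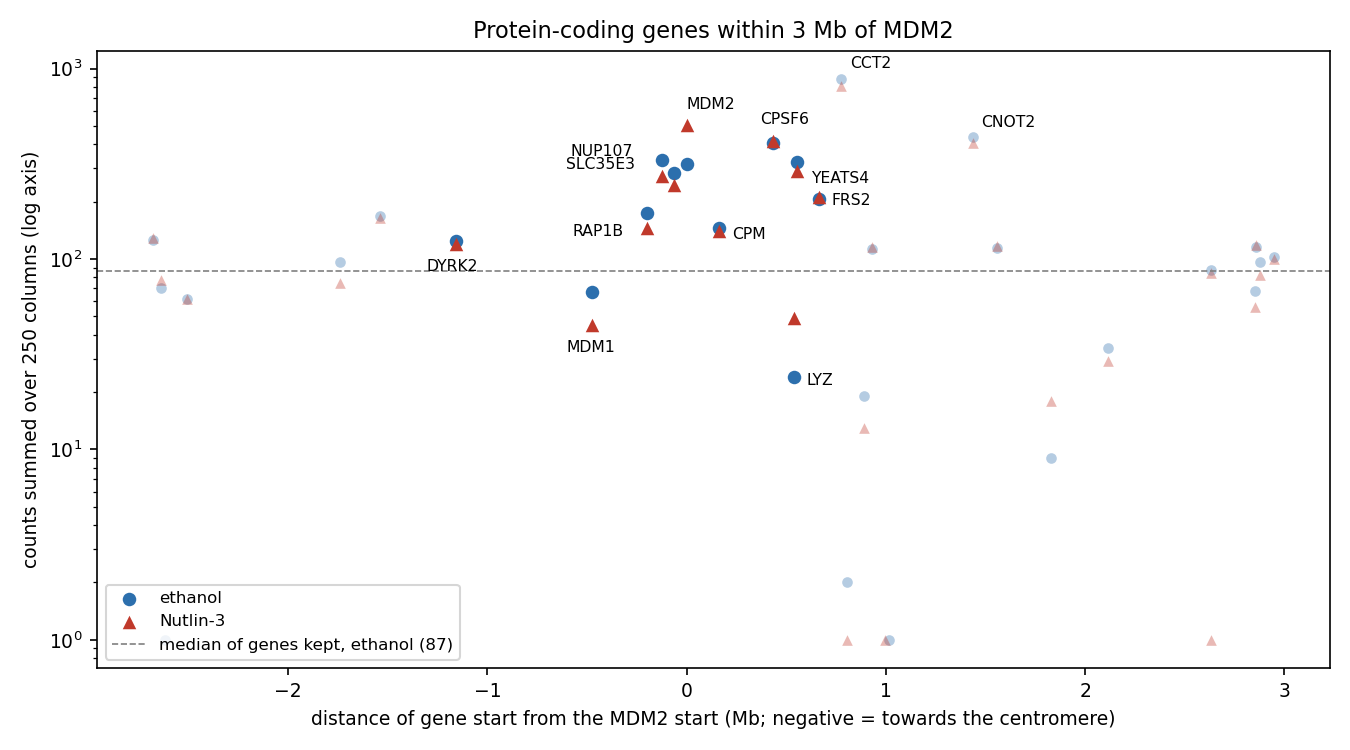
Counts summed over 250 columns per treatment (log axis) for the protein-coding genes within 3 Mb of MDM2, against the distance of the gene start from that of MDM2 in Mb. Strong symbols are MDM2 and the 10 neighbours, faint ones the other genes with at least 1 count, and the dashed line is the median of 87 counts; NUP107, SLC35E3, CPSF6 and YEATS4 lie near the ethanol level of MDM2, and MDM1 and LYZ lie below the line.

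Neighbours in the order of counts were often not separable. In ethanol CPSF6 stood above NUP107 by a ratio of 1.24 (1.07 to 1.43). Within the run of NUP107, YEATS4, MDM2 and SLC35E3, successive genes differed by ratios whose intervals held 1. SLC35E3 exceeded FRS2 by 1.37 (1.14 to 1.65), and within the run of FRS2, RAP1B, CPM and DYRK2 successive genes again did not separate. DYRK2 exceeded MDM1 by 1.87 (1.38 to 2.55) and MDM1 exceeded LYZ by 2.79 (1.73 to 4.65). The kit reads 3′ ends, for which counts need not grow with transcript length, yet levels of different genes were also compared per kb of the longest annotated transcript, which ran from 1.43 kb for YEATS4 to 17.8 kb for SLC35E3. Per kb the order was another one. YEATS4 was first with 225 counts per kb, followed by CPSF6 with 54.4, NUP107 with 51.3, FRS2 with 31.2 and MDM2 with 24.9. The median percentile of the neighbours per kb was 48.6 in ethanol, with 0 of 10 at or above the 99th percentile, so that the high standing of the group depends on the scale. MDM2 itself stood at the 53.3rd percentile per kb. YEATS4 stood at the 98.6th, CPSF6 at the 82.7th and NUP107 at the 81.3rd.

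Levels were also compared within the small columns. There the well-counted genes were themselves mostly at 1 count, as CPSF6 was in 93 of 137 ethanol columns and MDM2 in 109 of 137 Nutlin-3 columns, with 2 counts at most for MDM2. The median gene had 4 counts in the small ethanol columns, and genes with a large-column mean between 0.9 and 1.2 had a median of 13. CPSF6 had 125, NUP107 and YEATS4 99 each, MDM2 88, SLC35E3 83 and FRS2 52. RAP1B had 33, CPM 23, DYRK2 9, MDM1 3 and LYZ 0. Of the counts of YEATS4 in ethanol 30.7% lay in small columns, of CPSF6 30.6%, of NUP107 29.9% and of MDM2 27.9%, beside 11.4% over all genes that passed the filter. DYRK2, with 7.20%, and MDM1, with 4.48%, lay below that share.

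Genes of the same complexes or pathways were set beside 6 of the neighbours. Of these partners NUP37, EP400 and PTPN11 also lie on chromosome 12, at least 33.3 Mb from MDM2, and the others on other chromosomes. NUP107 works in the Y complex of the pore, whose 9 other listed genes had between 104 and 159 counts in ethanol, with a median of 136, against 331 for NUP107. Per kb, NUP107 had 51.3 counts against a median of 29.8 (16.6 to 67.0), and 7 of 9 partners were lower. In small columns the partners had 9 to 31 counts, against 99. CPSF6 had 409 counts, against 204 for NUDT21 and 106 for CPSF7, the other subunits of cleavage factor I. Per kb CPSF6 had 54.4, against 46.0 for NUDT21 and 28.7 for CPSF7. The 9 listed genes of the TIP60 and SRCAP complexes had 15 to 163 counts, against 323 for YEATS4, and per kb 1.28 to 80.1, against 225. For these 3 genes each listed partner was lower by counts, and each but 2 of the Y complex was lower per kb as well.

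**Figure D4:**
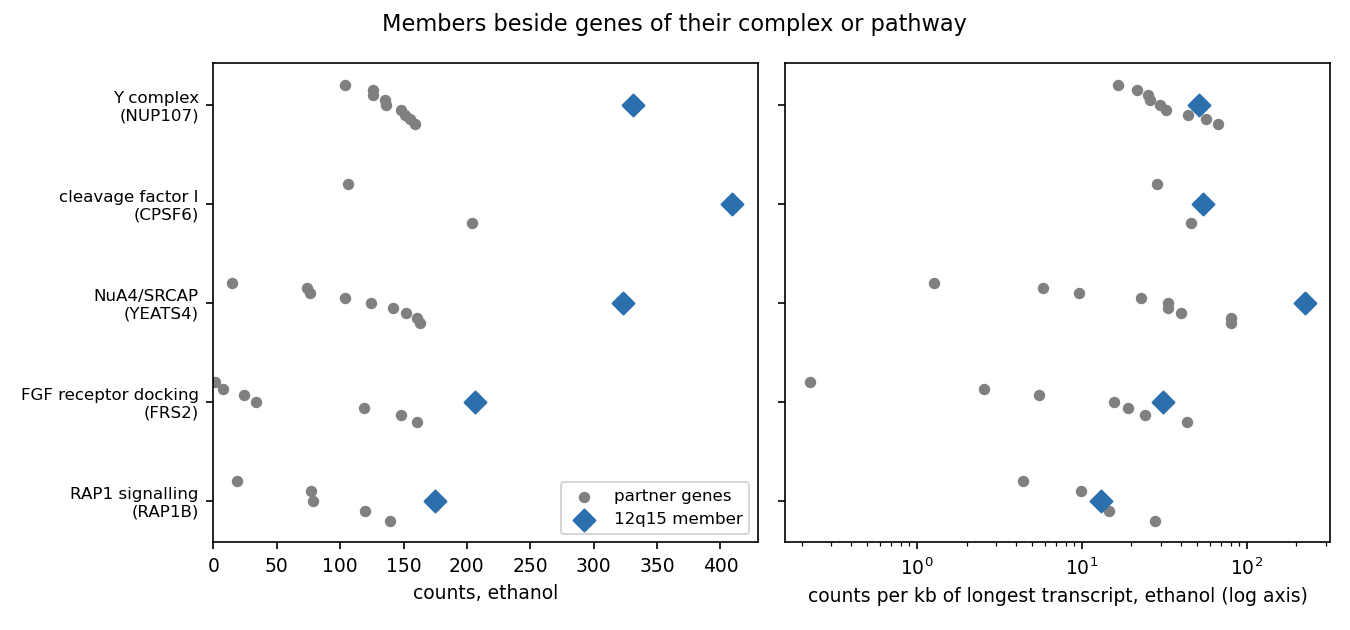
Counts in ethanol (left) and counts per kb of the longest transcript (right, log axis) of 5 neighbours of MDM2, as diamonds, and of listed genes of the same complex or pathway, as grey points. NUP107, CPSF6, YEATS4, FRS2 and RAP1B lie to the right of each of their partners by counts. Per kb only CPSF6 and YEATS4 do. DYRK2, with 125 counts against 187 for MDM4, is not drawn.

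The other pathways showed less distance. FRS2 had 206 counts, against 1 to 161 for 7 genes of FGF receptor signalling, and per kb 31.2, where GRB2, the adaptor that FRS2 recruits, had 43.2. FGFR1, the receptor with the most counts, had 119 in ethanol and 108 in Nutlin-3. RAP1B had 175 counts, against 139 for its close relative RAP1A, but per kb RAP1B had 13.0 and RAP1A 27.7. The median of 5 genes of RAP1 signalling was 12.6 per kb. DYRK2 had 125 counts, against 187 for MDM4, a relative of MDM2 that also binds p53. Per kb DYRK2 had 14.0, below MDM4 and below SIAH2, a ubiquitin ligase that acts on DYRK2. Of the 35 partners in all, 34 passed the filter, and their median log2 fold change of -0.07 lay beside that of the neighbours, -0.06. Of these 11 were higher and 23 lower in Nutlin-3, 2 in each direction by at least 0.32 on the log2 scale. Among all genes that passed the filter, 14.9% were higher and 12.4% lower by that much. The Y complex partners had a median of -0.10, beside -0.23 for NUP107.

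Genes farther along the chromosome were compared to see how far the levels reached. Of 26 listed protein-coding genes around the neighbours, 22 had a row and 18 passed the filter. HMGA2, IFNG, IL26 and IL22 were not analysed here. The 18 genes had a median percentile of 57.0 in ethanol by counts, and 2 of them lay at or above the 99th. CCT2, a subunit of the chaperonin that folds actin and tubulin, is the next well-counted gene beyond FRS2 and was counted 884 times in ethanol and 806 times in Nutlin-3, more than MDM2 or any neighbour. CNOT2, of the CCR4-NOT complex that shortens mRNA tails, had 435 and 407. RAB3IP, which starts between them, had 113 and 116, and KCNMB4, just beyond CNOT2, had 114 and 117. The kept genes beyond KCNMB4 on this side each had between 9 and 116 counts in ethanol. On the centromeric side CAND1, the nearest listed gene beyond DYRK2, had 169 and 164 counts and stood at the 93.6th percentile. The lowest among those kept were PTPRB with 9 counts in ethanol, BEST3 with 19 and PTPRR with 34.

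None of the flanking genes had a fold change whose interval excluded 0. Their median log2 fold change was -0.01, with 9 higher and 9 lower. Past 0.32 on the log2 scale, 1 was higher, PTPRB with 9 and 18 counts and a value of 1.01 (-0.18 to 2.38), and 2 were lower, BEST3 at -0.49 (-1.64 to 0.59) and GRIP1 at -0.32 (-0.78 to 0.12). The next highest was TMBIM4 at 0.20 (-0.28 to 0.69). The shares of all genes past 0.32 were 14.9% higher and 12.4% lower. Among MDM2, its 10 neighbours and these 18 genes, MDM2 and LYZ were the 2 whose counting intervals lay above 0 in the sums of all columns.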

How the data were processed

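RNA of NGP cells was counted in 4 libraries, 2 per treatment, made on the ddSeq device with the SureCell WTA 3′ kit, per the labels' protocols. The authors deposited whole-number counts per gene and column. For aligner, genome build, molecular tags, strand and choice of cells, the authors' steps were not given in the sources used here. No doublets were called or removed. Columns named treated were taken as Nutlin-3 and those named untreated as ethanol, and 0 columns were unassigned.

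The design called for a test on library sums if columns could be traced to libraries. They could not, so counts were summed per treatment and no p-value was computed. The 62 ERCC species were left out of library sizes. Scaling used the TMM factors of edgeR 4.0.16 in R 4.3.3, and its low-count filter with a minimum of 10 kept 14830 genes. Log2 fold changes had 0.5 counts added to each sum. Intervals are exact Poisson for sums and exact binomial for shares and fold changes, at 95%, for counting error only. The difference from the MDM2 fold change is the conditional odds ratio of the sums of both genes in both treatments, on the log2 scale, with its 95% interval. The fold-change intervals were checked on simulated Poisson counts, the model they assume. That check does not cover the smaller spread between columns seen here. A fold change was left out where both sums were at or under 3 counts.

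Symbols, positions and transcript lengths came from GENCODE release 29 on GRCh38, which matched 25602 of the 25693 identifiers. Column totals were split at 4000. All 10 neighbours were named whatever their values, with MDM2 as reference. Of the flanking genes, those with the 3 highest and 3 lowest levels and the 2 highest and 2 lowest fold changes were named by rule; RAB3IP and KCNMB4 were named after their values were seen, as were the partners and noncoding transcripts given by name. The genes and lists were chosen with earlier results of these data known. Alternatives were DESeq2 1.42.0 size factors, ERCC counts as library size, other filters, another added count, thinning, and subsets of columns.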

Additional observations from a re-analysis of the deposited data

How the results depend on the processing

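Of 91 values for single genes under 9 alternatives, 78 stayed within the counting interval of the first value, 13 left it and 0 changed sign where they had been called. ERCC counts as the library size moved 9 of these: the median log2 fold change of the neighbours became -0.53, but that of all genes became -0.47, so the neighbours stood at -0.06 relative to it, as before. MDM2 was then at 0.25 and LYZ at 0.59. By at least 0.32 on the log2 scale, 9 of the 10 neighbours were lower, as were 73.6% of all genes that passed the filter. ERCC RNA had been diluted 1000-fold or 10000-fold, depending on the library, and columns do not name their library. The pooled ERCC counts, 2989 in ethanol and 4007 in Nutlin-3, thus depend on an unknown mix of libraries. The shift of all genes under this setting therefore cannot be read as a change in RNA amount. Relative to the median of all genes MDM2 stood at 0.72, as before. Among genes whose mean reached 50 c.p.m. alone, 8 neighbours were kept and 0 were higher past the 0.32 threshold, since LYZ lay under that filter. The median level percentile was 64.1 in columns whose names occurred once, where 4 neighbours passed the filter, and 48.6 per kb. The median share of columns with a count, 12.4% in ethanol and 14.7% in Nutlin-3 at 700 counts, was 62.0% and 59.8% without thinning and 6.06% in Nutlin-3 at 350 counts. MDM1 and LYZ had no fold change in small columns, and DYRK2, MDM1, CPM and LYZ had none in columns whose names occurred once. Leaving out a library was not run because columns do not name their library. No paired analysis was possible because column names tell neither library nor replicate. Depth limits the view of MDM1 and LYZ most.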

Other observations

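Transcripts of 12q15 that do not code for protein were counted beside the coding genes. Within 3 Mb of MDM2, 34 such genes had a row and 16 passed the filter, with a median log2 fold change of 0.02. By at least 0.32 on the log2 scale, 3 were higher and 3 lower, beside 14.9% and 12.4% of all genes that passed the filter. LINC01481 (ENSG00000257815, chromosome 12, 69904033 to 70243360 in GRCh38), an antisense transcript whose start overlaps that of CNOT2 on the other strand, had the most counts, 221 in ethanol and 196 in Nutlin-3, and stood at the 97.5th percentile. AC090061.1, a long noncoding RNA whose start overlaps that of NUP107 on the other strand over 1022 bases, had 81 counts with ethanol and 93 with Nutlin-3, a log2 fold change of 0.24 (-0.20 to 0.69), beside -0.23 for NUP107. RPL21P18, a processed pseudogene of a ribosomal protein, had 25 and 43 counts, a log2 fold change of 0.82 (0.08 to 1.60), and reads shared with its parent gene would make it uncertain.

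The segment of 12q that holds CDK4 lies farther towards the centromere. Of 12 listed genes 11 had a row and passed the filter. By counts their median percentile was 94.3 in ethanol, beside 95.7 for the neighbours of MDM2. At or above the 90th lay 6 of 11, beside 6 of 10 neighbours and 9.84% of all genes. Per kb the 2 sets were less alike. CYP27B1, the middle gene of the 11, stood at the 83.7th percentile per kb, and the neighbours had a median of 48.6. CDK4, a kinase that drives entry into S phase, had 608 counts in the ethanol pool and 516 in the Nutlin-3 pool, a log2 fold change of -0.19 (-0.36 to -0.02). TSFM, a mitochondrial translation factor gene close to it, had 286 and 274. AGAP2 was the 1 gene of the segment higher by at least 0.32, with 53 counts in ethanol and 82 in Nutlin-3, a log2 fold change of 0.67 with a lower bound of 0.16. The median of the segment was 0.03, and 14.9% of all genes that passed the filter were higher by at least 0.32.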
